A study of Mus musculus with 12 samples.

Results

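The BCL2 family genes described here are 10 genes of the mitochondrial cell death pathway, Bcl2, Bcl2l1, Mcl1, Bcl2a1b, Bcl2l11, Bmf, Bid, Bad, Bik and Bak1. They were chosen by name, as the rows of the count table whose Ensembl identifier maps to these symbols, and all 10 were found among 37991 genes. All 10 also passed the filter on low counts, which kept 18612 genes. RNA-seq counts were analysed for 12 thymic lymphomas of C57BL/6 mice, 4 labelled non-responder and 8 labelled responder. Mice of both groups had the genotype p53neo/R172H;R26CreER/GNZ, that is, a p53neo allele over a p53 allele carrying the R172H mutation, a tamoxifen-activated Cre at R26 and a GNZ allele there. All tumour-bearing mice, non-responders and responders alike, were given weekly tamoxifen by intraperitoneal injection, so that Cre would restore wild-type p53. The label is the outcome on the last magnetic resonance image, growth or shrinkage, and the tumour was taken directly after that scan. An untreated tumour was not analysed here, so the values below are levels after treatment in tumours of different outcome. The design text calls the tumours independent, and the numbers used below only name them.

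The BCL2 family sets whether the outer membrane of the mitochondrion is opened, the step that commits a cell to apoptosis. Guardians such as BCL2, BCL-XL (from Bcl2l1), MCL1 and A1 (from the Bcl2a1 genes) hold the effectors BAX and BAK in check, and BH3-only proteins such as BIM (from Bcl2l11), BMF, BID, BAD and BIK bind guardians, effectors or both and so favour death. In the thymus, developing T cells pass through stages that lean on different guardians, BIM removes self-reactive thymocytes, and p53 can switch on several BH3-only genes. Here Bcl2, Bcl2l1, Mcl1 and Bcl2a1b are called the 4 guardians, and the 5 BH3-only genes with the effector Bak1 are called the 6 killers.

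Sequences are shown for Bcl2a1b, because reads from its copies bear on its counts, and for the promoters of 4 members with the lowest unadjusted p. Bcl2a1b has near-identical copies, so its counts depend on how reads were shared out. Its coding sequence of 516 bases differed from that of Bcl2a1a at 11 positions (97.9% identity) and from that of Bcl2a1d at 6 positions (98.8% identity). Shown are the first 90 coding bases of the 3 transcripts in the GENCODE M21 annotation of GRCm38, all on chromosome 9. No other stretch of 90 coding bases holds more of the positions at which the 3 differ. Capitals mark the positions at which the 3 sequences are not all alike.

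Bcl2a1b: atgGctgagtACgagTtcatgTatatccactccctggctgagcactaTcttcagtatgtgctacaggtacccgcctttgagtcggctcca
Bcl2a1a: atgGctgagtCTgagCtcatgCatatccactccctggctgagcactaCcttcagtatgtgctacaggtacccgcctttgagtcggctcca
Bcl2a1d: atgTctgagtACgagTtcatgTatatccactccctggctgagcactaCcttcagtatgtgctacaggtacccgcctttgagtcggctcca

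Of 743 stretches of 75 bases along Bcl2a1b transcripts, 75 being the read length, 68.4% also occurred in a transcript of another gene, and 43.5% occurred in Bcl2a1a or Bcl2a1d. The predicted gene Gm29094 on the same strand covers 49.1% of the Bcl2a1b exon bases. Values for Bcl2a1b are therefore uncertain as to the copy they come from. Bcl2a1a and Bcl2a1d were not analysed here.

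The promoters below belong to the 4 members with an unadjusted p under 0.05 in the comparison of non-responders with responders, as described further on. Each runs from 250 bases before to 50 bases after the RefSeq transcription start (GRCm38.p6), 5′ to 3′ on the strand of the gene. RefSeq promoter entries existed for 9 of the 10 members, the exception being Bik, and made 15 promoters in all. Capitals mark E-boxes, the sites of basic helix-loop-helix factors such as the E proteins of thymocytes. The Bmf promoter lies at chr2:118549637-118549936 on the minus strand, Bid at chr6:120916775-120917074 on the minus strand, Bcl2 at chr1:106714241-106714540 on the minus strand and Bcl2a1b at chr9:89199023-89199322 on the plus strand. Of the 3 Bmf entries, the one with the start farthest upstream is shown.

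Bmf: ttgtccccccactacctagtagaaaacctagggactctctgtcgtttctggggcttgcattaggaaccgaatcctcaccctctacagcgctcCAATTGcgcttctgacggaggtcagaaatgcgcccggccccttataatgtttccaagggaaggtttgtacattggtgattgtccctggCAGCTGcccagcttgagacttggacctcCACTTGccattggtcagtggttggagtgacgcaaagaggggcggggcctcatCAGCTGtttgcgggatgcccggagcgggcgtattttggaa
Bid: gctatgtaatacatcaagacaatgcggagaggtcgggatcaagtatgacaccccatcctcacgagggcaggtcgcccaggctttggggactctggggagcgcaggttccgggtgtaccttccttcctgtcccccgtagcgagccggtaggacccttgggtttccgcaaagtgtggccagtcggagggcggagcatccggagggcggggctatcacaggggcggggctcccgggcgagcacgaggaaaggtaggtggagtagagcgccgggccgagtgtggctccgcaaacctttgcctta
Bcl2: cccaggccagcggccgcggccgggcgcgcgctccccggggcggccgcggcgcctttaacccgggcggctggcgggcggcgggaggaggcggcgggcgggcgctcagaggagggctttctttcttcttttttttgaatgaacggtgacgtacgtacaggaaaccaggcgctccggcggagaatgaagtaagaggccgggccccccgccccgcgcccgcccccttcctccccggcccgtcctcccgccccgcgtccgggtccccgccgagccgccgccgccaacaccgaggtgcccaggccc
Bcl2a1b: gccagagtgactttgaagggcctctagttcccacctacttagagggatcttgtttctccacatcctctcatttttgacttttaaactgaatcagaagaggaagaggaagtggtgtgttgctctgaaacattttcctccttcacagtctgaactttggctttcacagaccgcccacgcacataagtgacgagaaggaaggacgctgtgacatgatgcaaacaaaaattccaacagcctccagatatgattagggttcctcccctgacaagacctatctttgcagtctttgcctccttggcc

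Letters for 5 motifs were searched on both strands of each promoter. They were an E-box (CANNTG), a kappaB site (GGGA, any 2 bases, TTCC), a FOXO site (TGTTTAC), an ETS site (CCGGAAG) and a RUNX site (TGTGGTT). Of the 15 member promoters 10 held an E-box, against 72.3% of 32851 mouse promoters of the same length. An ETS site was found in 3 member promoters, those of Bcl2l1, Mcl1 and Bcl2l11 (8.86% of all promoters), a FOXO site in 1, of Bcl2l11 (3.65%), and a RUNX site in 1, of Bak1 (5.27%). The kappaB letters were in 0 of the 15 (1.47% of all promoters). The Bmf promoter shown holds 4 E-boxes, the Bid, Bcl2 and Bcl2a1b promoters shown hold no match to any of the 5, and the GC content was 55.3% for Bmf, 63.3% for Bid, 76.0% for Bcl2 and 46.7% for Bcl2a1b beside a median of 52.7% over all promoters.

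Libraries held 20796860 to 30265753 counts. The T cell identity of the tumours could be checked on 12 T cell markers, such as Cd3e and Lck, of which all were counted. Their summed level was 2960 to 4109 CPM (counts scaled to a common library total by edgeR) in non-responders and 997 to 4066 CPM in responders. Rag1, a recombinase gene of cortical thymocytes, was at 1498, 168, 1756 and 1264 CPM in non-responders 1 to 4, and at 895, 1204 and 1262 CPM in responders 1 to 3, but at 0.41 to 2.91 CPM in responders 4 to 8. Il7r, a receptor gene of mature and early T cells, was at 5.51 to 31.2 CPM in non-responders, at 28.5 to 48.3 CPM in responders 1 to 3 and at 142 to 845 CPM in responders 4 to 8. The responder label therefore covers tumours of unlike T cell marker patterns, and responders 1 to 3 stood with the non-responders in Rag1. Trp53 averaged 69.2 ± 4.36 CPM in non-responders and 69.3 ± 20.8 CPM in responders (SD, n = 4 and 8), and counts per gene do not tell the R172H allele from wild type. The mean of 10 scores for other cell types (blood, vessel, connective tissue and others, each the mean log2 CPM of a marker list) was 2.10 to 2.43 in non-responders and 2.50 to 5.41 in responders, without overlap.

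Among the 10 members, the log2 fold changes farthest above 0 were those of Bmf (1.06) and Bid (0.95), with higher means in non-responders, and the farthest below 0 were those of Bcl2a1b (-2.16) and Bcl2 (-1.16), with lower means in non-responders. None of the 10 passed the threshold, an adjusted p under 0.05 by edgeR's quasi-likelihood test with Benjamini-Hochberg adjustment over all 18612 genes. No gene of the whole table did so either, a background of 0%. At an unadjusted p under 0.05, 2 members were higher in non-responders (Bmf and Bid), where 7.73% of all genes were, and 2 were lower (Bcl2 and Bcl2a1b), where 16.1% of all genes were, which makes 4 of 10 beside 23.8% in either direction. DESeq2 called 1 member higher (Bmf; 2.8% of genes) and 1 lower (Bcl2a1b; 10.4%), while limma-voom, run with quality weights, called 2 higher (Bmf and Bid; 4.55%) and 1 lower (Bcl2a1b; 4.71%). The members' log2 fold changes, non-responder over responder, were above 0 for 5 and below 0 for 5, with a median of 0.04 beside -0.02 over all genes. In bulk tumours, fewer cells of a type and less RNA of the gene per cell cannot be told apart, which holds for every value below.

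**Figure D1:**
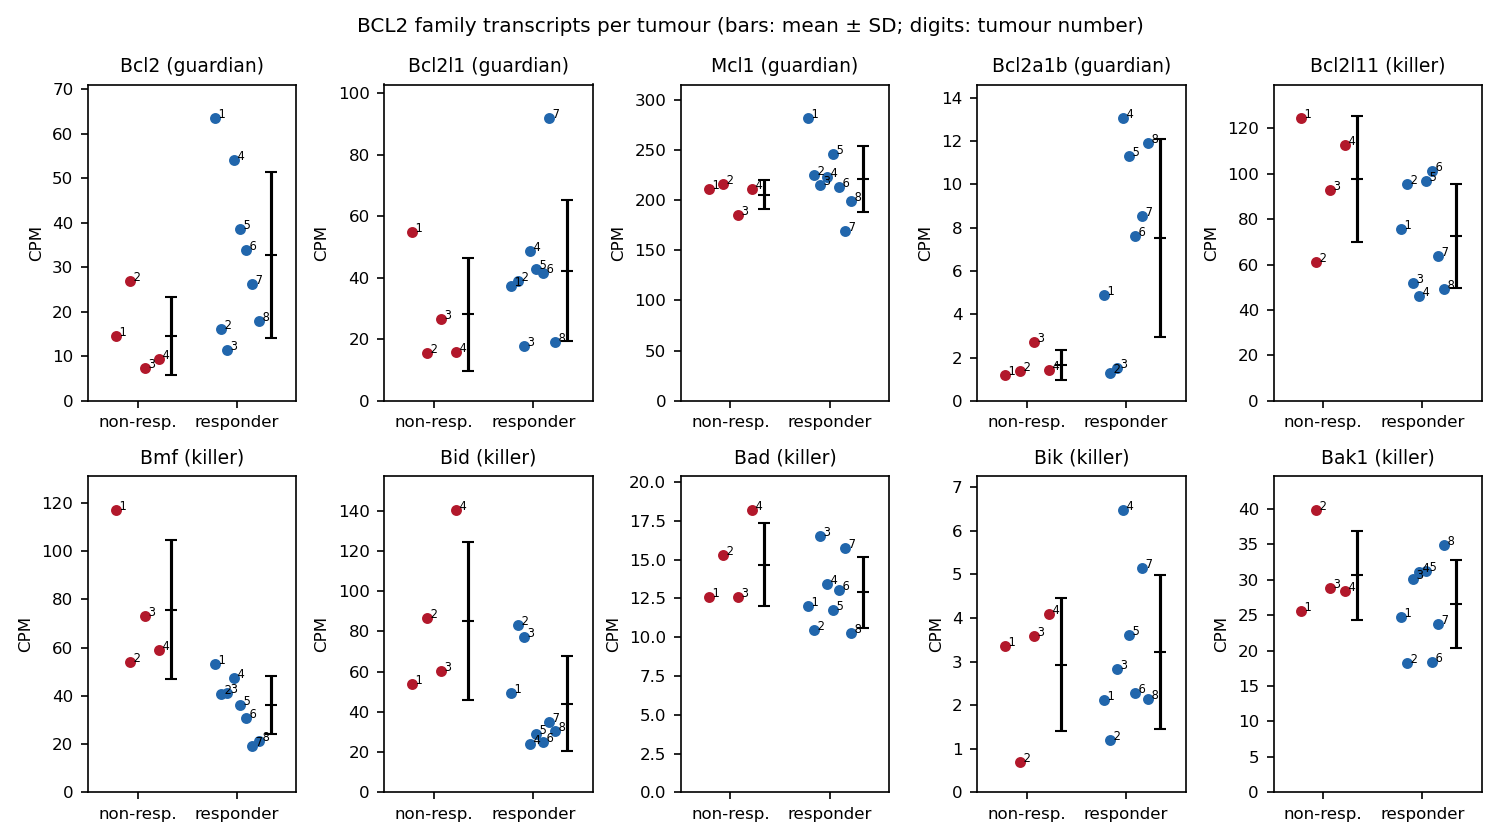
Level of each of the 10 members in every tumour. The vertical axis is CPM from 0, each point is a tumour with its number, non-responders (n = 4, red) stand left of responders (n = 8, blue), and bars are mean ± SD. Bmf is the member whose groups do not overlap, with 54.0 CPM in the lowest non-responder and 53.3 CPM in the highest responder.

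Among the guardians, Bcl2 (ENSMUSG00000057329, chr1:106538178-106714274, minus strand, gene positions here and below being on GRCm38) codes for the founding member, which mature lymphocytes rely on and follicular lymphomas activate by translocation. Its level was 14.5, 27.0, 7.50 and 9.31 CPM in non-responders 1 to 4, against a lowest value of 11.5, a median of 30.1 and a highest value of 63.4 CPM in responders. The groups overlapped, since non-responder 2 stood above 4 responders and responder 3 stood below 2 non-responders. Means were 14.6 ± 8.81 CPM in non-responders and 32.7 ± 18.6 CPM in responders (SD, n = 4 and 8), a log2 fold change of -1.16 (edgeR adjusted p = 0.180, SE 0.49, unadjusted p = 0.0350). Leaving out single tumours gave -1.63 to -0.93, the strongest without non-responder 2. With the mean score of the other cell types in the model the value turned to 0.20, so the direction for Bcl2 depended on that term. The antisense transcript D630008O14Rik overlaps 6.09% of the Bcl2 exon bases and averaged 0.282 CPM in non-responders and 1.17 CPM in responders.

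Bcl2l1 (ENSMUSG00000007659, chr2:152780668-152831728, minus strand), the gene of BCL-XL, is the guardian on which immature CD4 and CD8 double-positive thymocytes depend. It was at 54.8, 15.5, 26.5 and 15.8 CPM in non-responders 1 to 4 and at 17.9 (lowest), 40.3 (median) and 91.9 CPM (highest) in responders. Non-responder 1 lay above 7 of the 8 responders and responder 7 lay far above all other tumours, so the groups overlapped widely. The means were 28.1 ± 18.5 CPM in non-responders and 42.3 ± 22.9 CPM in responders. This gave a log2 fold change of -0.59 (edgeR adjusted p = 0.444, SE 0.45), which was -1.13 without non-responder 1, -0.37 without non-responder 2, -0.39 without non-responder 4 and -0.33 without responder 7. With the score of the other cell types in the model it turned to 0.018.

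Mcl1 (ENSMUSG00000038612, chr3:95658788-95663176, plus strand) codes for a short-lived guardian needed by T cells at every stage. Its mRNA varied little, with 211, 216, 185 and 211 CPM in non-responders 1 to 4 and 169 (lowest), 219 (median) and 281 CPM (highest) in responders. All non-responders lay within the range of the responders. Its means were 205 ± 14.1 CPM in non-responders and 221 ± 32.9 CPM in responders, with a log2 fold change of -0.11 (edgeR adjusted p = 0.682, SE 0.15), which was -0.04 without non-responder 3 or without responder 1 and 0.0034 with the score of the other cell types in the model. MCL1 is largely regulated as a protein, which was not measured here.

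Bcl2a1b (ENSMUSG00000089929, chr9:89199209-89207827, plus strand) is one of the A1 genes, NF-kappaB targets active in lymphocytes, mast cells and neutrophils. It had 1.19, 1.37, 2.71 and 1.41 CPM in non-responders 1 to 4, against 1.27 (lowest), 8.08 (median) and 13.0 CPM (highest) in responders. Responders 2 and 3, at 1.27 and 1.52 CPM, lay within the range of the non-responders, and the other 6 responders lay above it, from 4.90 CPM in responder 1 upward. The log2 fold change was the widest of the 10 members, -2.16 (SE 0.65, unadjusted p = 0.00531), from means of 1.67 ± 0.701 CPM in non-responders and 7.51 ± 4.58 CPM in responders. It did not pass by edgeR (adjusted p = 0.117) but did so by DESeq2 (adjusted p = 0.00590) and limma-voom (adjusted p = 0.0428), and over 19 alternatives the adjusted p ran between 0.00590 and 0.796. The count behind a value was 26 to 401 reads, and with the cortical thymocyte score in the model the log2 fold change was -0.70. Markers of neutrophils, which also express A1 genes, summed to 15.3 to 32.5 CPM in non-responders and 36.1 to 768 CPM in responders, and 12 of 12 were lower in non-responders, with Elane at 0 in all 4. Markers of B cells summed to 25.6 to 89.8 CPM in non-responders and 33.7 to 534 CPM in responders, with 10 of 10 lower in non-responders. Responder 4, with the highest Bcl2a1b, had sums of 324 CPM for neutrophils and 534 CPM for B cells. Responder 8, at 11.9 CPM of Bcl2a1b, had 36.1 and 36.6 CPM. All tested markers of dendritic, endothelial, muscle and fat cells were lower in non-responders too. The other lists were mixed, with 10 lower and 2 higher for macrophages, 7 and 3 for fibroblasts, 8 and 1 for erythroid cells and 9 and 1 for thymic epithelium. Macrophage sums overlapped, at 1093 to 3352 CPM in non-responders and 817 to 3340 CPM in responders. The part of neutrophils or B cells in the Bcl2a1b value was not tested.

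Among the BH3-only killers, Bmf (ENSMUSG00000040093, chr2:118528757-118549687, minus strand) codes for a BCL2-modifying factor that is held at the cytoskeleton in healthy cells and acts in lymphocyte death. Its level was 117, 54.0, 73.0 and 59.0 CPM in non-responders 1 to 4, against 19.3 (lowest), 38.6 (median) and 53.3 CPM (highest) in responders. Every non-responder lay above every responder, with non-responder 2 just above responder 1, and 0.951% of all genes had groups that did not overlap in this direction. In the other direction, with every non-responder lower, there were 0 members and 1.18% of all genes. Bmf averaged 75.8 ± 28.7 CPM in non-responders and 36.3 ± 11.9 CPM in responders, a log2 fold change of 1.06 (SE 0.28, unadjusted p = 0.00247). That missed the threshold by edgeR (adjusted p = 0.117) and passed it by DESeq2 (adjusted p = 0.0110) and limma-voom (adjusted p = 0.0408), within a range of 0.0110 to 0.739 over 19 alternatives. The value was 0.78 to 1.20 when single tumours were left out, 0.69 with the cortical thymocyte score in the model and 1.30 with the score of the other cell types.

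Bid (ENSMUSG00000004446, chr6:120891930-120916853, minus strand) links death receptors to the mitochondrion once caspase-8 has cut its protein, and is also a p53 target. It was at 54.0, 86.7, 60.5 and 140 CPM in non-responders 1 to 4 and at 24.0 (lowest), 32.9 (median) and 83.1 CPM (highest) in responders. Responders 2 and 3, at 83.1 and 77.1 CPM, stood among the non-responders, while responder 1 (49.5 CPM) and responders 4 to 8 (24.0 to 35.2 CPM) stood below all 4. The means were 85.4 ± 39.3 CPM in non-responders and 44.2 ± 23.6 CPM in responders, with a log2 fold change of 0.95 (edgeR adjusted p = 0.161, SE 0.38, unadjusted p = 0.0266). Limma-voom called it (adjusted p = 0.0423, the lowest over 19 alternatives, of which the highest was 0.966), and it was 0.60 without non-responder 4. It was 0.42 with the cortical thymocyte score in the model and 0.16 with the score of the other cell types. Bcl2l13, on the opposite strand over 17.7% of the Bid exon bases, averaged 73.4 CPM in non-responders and 61.2 CPM in responders, and whether counting used the strand is not given in the sources used here.

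Bcl2l11 (ENSMUSG00000027381, chr2:128126038-128162547, plus strand) codes for BIM, the main trigger of thymocyte negative selection and a FOXO target. Non-responders 1 to 4 had 124, 61.3, 92.7 and 112 CPM, and responders had 46.2 (lowest), 69.8 (median) and 101 CPM (highest). Non-responders 1 and 4 lay above every responder and non-responder 2 lay below 5 of them. Means were 97.7 ± 27.6 CPM in non-responders and 72.5 ± 22.9 CPM in responders, with a log2 fold change of 0.43 (edgeR adjusted p = 0.328, SE 0.26) that stayed between 0.30 and 0.62 when single tumours were left out.

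Bad (ENSMUSG00000024959, chr19:6941861-6951899, plus strand), a BH3-only gene whose protein is silenced by survival kinases, was at 12.6, 15.3, 12.6 and 18.2 CPM in non-responders 1 to 4 and at 10.3 (lowest), 12.5 (median) and 16.5 CPM (highest) in responders. Non-responder 4 was the highest tumour and the other 3 lay within the responders. Its log2 fold change was 0.19 (edgeR adjusted p = 0.588, SE 0.20), and 0.07 without non-responder 4. Gpr137, opposite over 20.5% of the Bad exon bases, was at 6.15 CPM in non-responders and 6.35 CPM in responders.

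Bik (ENSMUSG00000016758, chr15:83526862-83544634, plus strand), a BH3-only gene whose protein sits at the endoplasmic reticulum, was near the floor of the family. It was at 3.35, 0.69, 3.59 and 4.09 CPM in non-responders 1 to 4 and at 1.19 (lowest), 2.55 (median) and 6.47 CPM (highest) in responders, which overlapped. The log2 fold change of -0.14 (edgeR adjusted p = 0.892, SE 0.51) had no fixed sign, being 0.21 without non-responder 2, 0.10 without responder 4, 0.46 with the cortical thymocyte score in the model and 0.59 with the score of the other cell types.

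Bak1 (ENSMUSG00000057789, chr17:27019810-27029009, minus strand) codes for the effector BAK, which forms pores in the outer membrane. It was at 25.5, 39.8, 28.8 and 28.3 CPM in non-responders 1 to 4 and at 18.2 (lowest), 27.4 (median) and 34.8 CPM (highest) in responders. Non-responder 2 was the highest tumour and the other 3 lay within the responders. Means were 30.6 ± 6.31 CPM in non-responders and 26.5 ± 6.21 CPM in responders, with a log2 fold change of 0.21 (edgeR adjusted p = 0.569, SE 0.21), which was 0.07 without non-responder 2. Ggnbp1, opposite over 25.5% of the Bak1 exon bases, was at 3.86 CPM in non-responders and 4.68 CPM in responders.

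Levels of different genes were compared per kilobase of exon (CPM per kb). Mcl1 led in every group, with 60.1 ± 4.12 CPM per kb in non-responders and 64.7 ± 9.63 CPM per kb in responders. In non-responders the order below it was Bid (24.1 ± 11.1 CPM per kb), Bmf (14.4 ± 5.47), Bak1 (12.7 ± 2.62), Bcl2l11 (12.2 ± 3.43), Bcl2l1 (6.14 ± 4.03), Bad (5.74 ± 1.05), Bcl2a1b (2.05 ± 0.859), Bik (1.84 ± 0.959) and Bcl2 (1.59 ± 0.962). In responders it was Bid (12.4 ± 6.65 CPM per kb), Bak1 (11.03 ± 2.58), Bcl2l1 (9.22 ± 4.99), Bcl2a1b (9.19 ± 5.61), Bcl2l11 (9.03 ± 2.85), Bmf (6.91 ± 2.27), Bad (5.04 ± 0.888), Bcl2 (3.57 ± 2.03) and Bik (2.02 ± 1.11). Neighbours in either order differed by less than the larger of their SDs, except Mcl1 and Bid in both groups, and Bcl2l11 and Bcl2l1 and also Bad and Bcl2a1b in non-responders. Bcl2a1b stood below Bad in non-responders and above it in responders, and Bmf above Bak1 and Bcl2l11 in non-responders and below both in responders.

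Within the guardians, Mcl1 made up 80.4% to 90.9% of the summed CPM per kb in non-responders and 59.7% to 89.9% in responders. The Bcl2a1b share was 1.91% to 5.20% in non-responders and 2.01% to 18.5% in responders, with the highest share in responder 8. Bcl2l1 made up 4.75% to 15.6% in non-responders and 5.28% to 24.2% in responders, and Bcl2 1.28% to 4.15% in non-responders and 1.80% to 6.70% in responders. Bcl2 was the smallest guardian in 8 of the 12 tumours and Bcl2a1b in the other 4. The share and rank of Bcl2a1b depend on how reads that it shares with other genes were counted. The Bcl2 level per kb was below that of Bcl2l1 in all 12, at a log2 ratio of -2.91 to -0.20 in non-responders and -2.80 to -0.24 in responders.

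**Figure D2:**
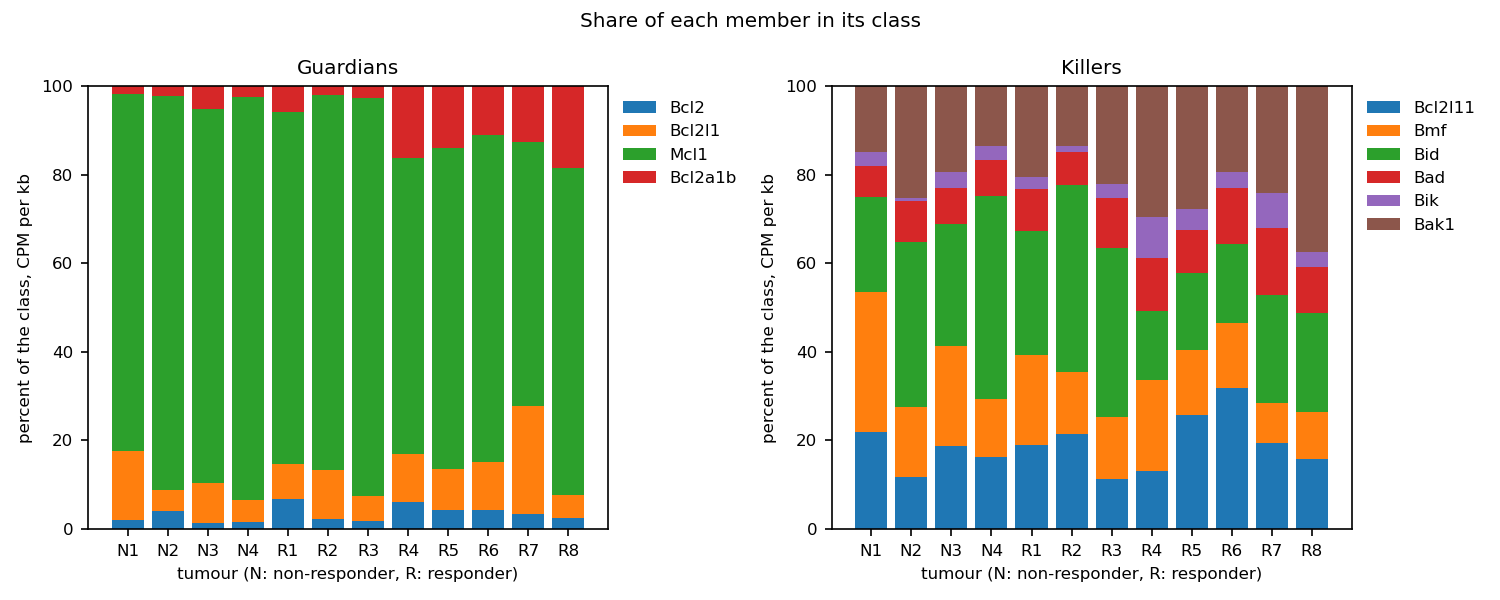
Share of each member in the summed CPM per kb of its class, in percent, for the 4 guardians (left) and the 6 killers (right). Each bar is a tumour, non-responders N1 to N4 left of responders R1 to R8. Mcl1 fills 80.4% to 90.9% of the guardian bar in non-responders, and Bcl2a1b takes up to 18.5% in responders.

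Within the killers, no gene held the place that Mcl1 held among the guardians. Bid made up 21.6% to 45.9% of the summed CPM per kb in non-responders and 15.5% to 42.2% in responders. Bmf made up 13.0% to 31.6% in non-responders and 8.98% to 20.6% in responders, and Bcl2l11 made up 11.7% to 21.9% in non-responders and 11.4% to 31.8% in responders. Bak1 took 13.6% to 25.3% in non-responders and 13.6% to 37.4% in responders. The leading killer differed between tumours of 1 label: in non-responder 1 it was Bmf (31.6%), in non-responder 4 Bid (45.9%), in responder 6 Bcl2l11 (31.8%) and in responder 8 Bak1 (37.4%).

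The balance of each tumour was taken as the mean log2 CPM of the 4 guardians minus that of the 6 killers, so that each gene has equal weight. It was -0.52, -0.25, -0.67 and -1.27 in non-responders 1 to 4, against -0.61 (lowest, responder 3), 0.97 (median) and 1.20 (highest, responder 4) in responders. This scale takes no account of gene length, so it compares tumours with each other and its 0 does not mark equal levels. All 4 non-responders lay at -0.25 or below, while 6 responders lay at 0.80 or above, responder 2 at 0.02, and responder 3 among the non-responders. Responders 4 to 8, with Rag1 at 0.41 to 2.91 CPM, lay at 0.80 to 1.20. Responders 1 to 3, with Rag1 at 895 to 1262 CPM, lay at 0.92, 0.02 and -0.61. All non-responders had Rag1 at 168 CPM or more, and the part of T cell stage in the balance was not tested. The mean balance was -0.68 ± 0.43 in non-responders and 0.68 ± 0.64 in responders (SD, n = 4 and 8), a difference of -1.36. It came from both sides, a guardian mean of 4.18 ± 0.23 log2 CPM in non-responders against 5.09 ± 0.60 in responders and a killer mean of 4.86 ± 0.27 in non-responders against 4.41 ± 0.17 in responders. The balance was not tested, because the members were listed with results of these tumours known.

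Weighted by level, as the log2 ratio of guardian to killer CPM per kb, the balance was 0.12, 0.12, 0.05 and -0.35 in non-responders 1 to 4 and 0.30 (lowest, responder 3), 1.04 (median) and 1.16 (highest) in responders. On this scale and with these 10 genes the groups did not overlap. Means were -0.01 ± 0.22 in non-responders and 0.90 ± 0.32 in responders. Responders 4 to 8, with Rag1 at 0.41 to 2.91 CPM, were at 1.02 to 1.16. Responders 1 to 3, with Rag1 at 895 to 1262 CPM, were at 1.05, 0.48 and 0.30. The 6 killers summed to 70.9 ± 10.9 CPM per kb in non-responders (61.6 to 86.2). In responders they summed to 46.5 ± 7.02 CPM per kb (38.7 to 56.7), without overlap. Bax, not among the 6, was at 20.4 CPM per kb in non-responders and 21.8 CPM per kb in responders. Guardians summed to 69.9 ± 5.39 CPM per kb in non-responders (63.9 to 76.6) and to 86.7 ± 12.0 CPM per kb in responders (69.9 to 103), which overlapped. The score of the other cell types did not overlap between the groups either, at 2.10 to 2.43 in non-responders and 2.50 to 5.41 in responders. With it in the edgeR model, 3 of the 4 guardians moved to or near 0. Log2 fold changes were 0.20 for Bcl2 (unadjusted p = 0.691), 0.018 for Bcl2l1 (0.979) and 0.0034 for Mcl1 (0.987). That of Bcl2a1b was -1.57 (unadjusted p = 0.0573). Since the score itself separates the groups, label and score can hardly be told apart in this model.

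**Figure D3:**
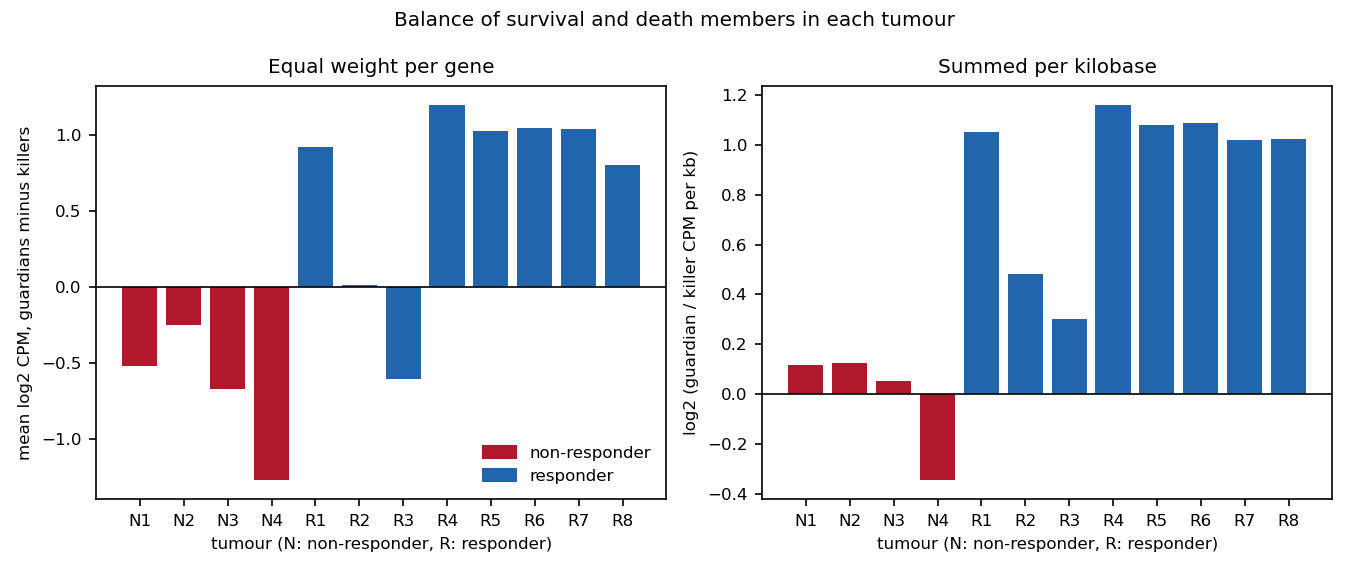
Balance of guardians and killers in each tumour, non-responders N1 to N4 (red) left of responders R1 to R8 (blue). Left, mean log2 CPM of the 4 guardians minus that of the 6 killers; right, log2 ratio of their summed CPM per kb. The left panel shows responder 3 at -0.61 among the non-responders, and the right panel shows all non-responders at 0.12 or below.

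The size of the difference depended on which genes were counted. With all tested guardians and killers of the family, that is, with Bcl2l2 as a further guardian and Bax, Bok, Bbc3 and Pmaip1 as further killers, the difference was -0.76 with equal weights and -0.55 per length. On the equal-weight scale the whole-family balance was -0.16, 0.23, -0.03 and -0.53 in non-responders 1 to 4. It was -0.11 to 1.06 in responders, so that non-responders 2 and 3 lay above responder 3. Per length the whole-family groups overlapped too, with non-responder 2 slightly above responder 3. The summed killers of the whole family also overlapped, with responder 1 above non-responders 2 and 3. Without Bcl2a1b, whose reads may come from its copies, the difference over the 10 members was -1.06.

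Of 17 other BCL2 family genes listed, 15 were counted and 12 tested, with 4 log2 fold changes above 0 and 8 below, a median of -0.37, and 0 with an adjusted p under 0.05 by edgeR. At an unadjusted p under 0.05, 2 of the 12 were lower in non-responders, Bbc3 and Bnip3, beside 16.1% of all genes, and 0 were higher, beside 7.73%. Bbc3, the gene of the BH3-only protein PUMA and a leading p53 target in thymocyte death, was at 5.87, 2.60, 3.64 and 2.22 CPM in non-responders 1 to 4 and at 1.65 (lowest), 11.5 (median) and 26.9 CPM (highest) in responders. Responders 2 and 3, at 1.65 and 2.995 CPM, lay among or below the non-responders and the other 6 lay above them, the arrangement also seen for Bcl2a1b. Its log2 fold change was -1.92 (edgeR adjusted p = 0.134, SE 0.69). The adjusted p was 0.0243 by DESeq2, which called 10.4% of all genes lower, and 0.0647 by limma-voom, above the threshold. Pmaip1, the gene of NOXA, a p53 target whose protein antagonises MCL1, averaged 6.23 ± 4.54 CPM in non-responders and 11.2 ± 5.25 CPM in responders, with a log2 fold change of -0.84 (edgeR adjusted p = 0.371, SE 0.55).

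Bax, the effector partner of Bak1 and a p53 target, was even across tumours, at 34.4, 27.8, 30.6 and 36.1 CPM in non-responders 1 to 4 and 24.9 to 41.6 CPM in responders. Its log2 fold change was -0.09 (edgeR adjusted p = 0.761, SE 0.16). Per length it stood above Bak1, at 20.4 ± 2.37 CPM per kb in non-responders and 21.8 ± 3.43 CPM per kb in responders. Bok, an effector-like relative, averaged 2.73 ± 1.28 CPM in non-responders and 4.38 ± 1.71 CPM in responders (log2 fold change -0.68). Bcl2l2, the gene of the guardian BCL-W, averaged 6.46 ± 3.89 CPM in non-responders and 7.86 ± 3.49 CPM in responders (log2 fold change -0.28). Bcl2l10, Bcl2a1c and Hrk were counted at too low a level to be tested.

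Bnip3, a mitophagy and hypoxia gene related to the family, had 19.4, 19.7, 20.3 and 31.1 CPM in non-responders 1 to 4 and 27.8 (lowest), 37.0 (median) and 108 CPM (highest) in responders. Its log2 fold change was -1.11 (edgeR adjusted p = 0.131, SE 0.39, by DESeq2 0.0449 and by limma-voom 0.0695), and non-responder 4 lay above responders 1, 3 and 8. Its relative Bnip3l had a log2 fold change of 0.01, the autophagy gene Becn1 0.01, Bcl2l12 0.48, Bcl2l13 0.26, Bcl2l14 -0.46 and Bcl2l15 -0.54, and the unadjusted p of each of these 6 was above 0.05.

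**Figure D4:**
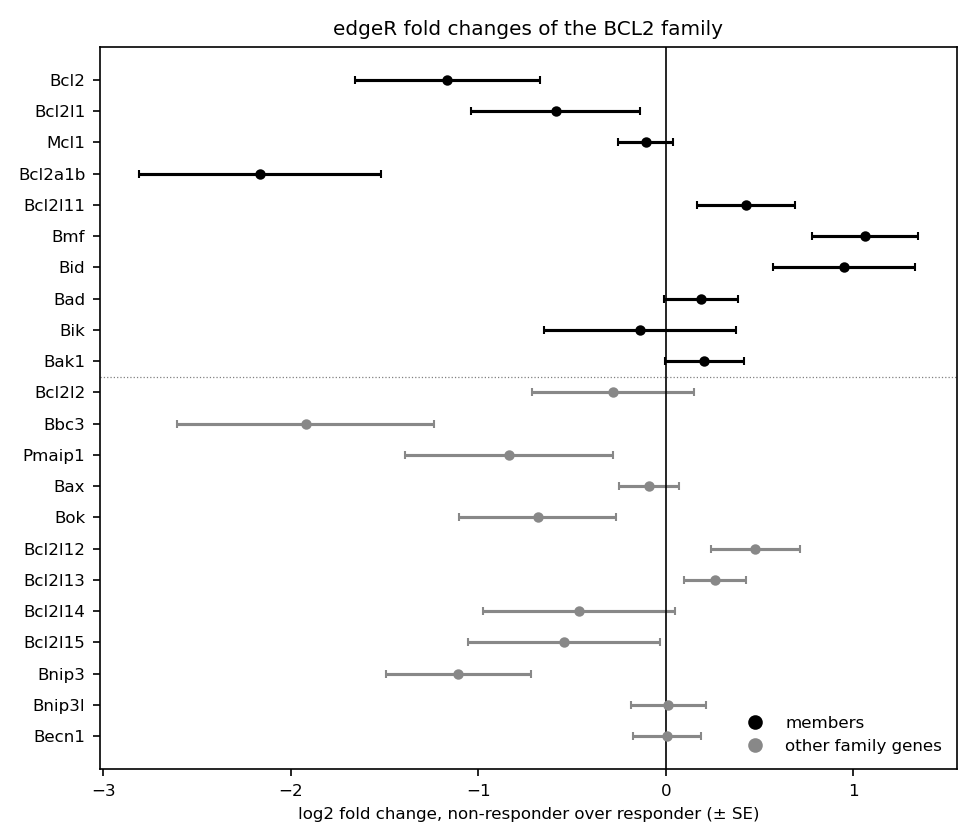
Log2 fold change of the 10 members (black) and of 12 other tested family genes (grey), non-responder over responder, with bars of ± 1 SE from the edgeR fit over 18612 genes. Bcl2a1b (-2.16), Bbc3 (-1.92), Bcl2 (-1.16) and Bnip3 (-1.11) lie farthest to the left, and Bmf (1.06) and Bid (0.95) farthest to the right.

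Of 17 genes of the mitochondrial death machinery downstream of the family, 12 had log2 fold changes above 0 and 5 below, with a median of 0.34, and 0 passed by edgeR. At an unadjusted p under 0.05, 3 of the 17 were higher in non-responders, Parp1 and Vdac3 among them, beside 7.73% of all genes, and 0 were lower, beside 16.1%. Parp1, a DNA repair enzyme gene whose protein caspases cut, was at 438, 459, 394 and 498 CPM in non-responders 1 to 4 and at 160 (lowest), 239 (median) and 436 CPM (highest) in responders. Responders 2 and 3, at 409 and 436 CPM, again lay among the non-responders. The log2 fold changes were 0.73 for Parp1 (edgeR adjusted p = 0.129, SE 0.25) and 0.51 for Vdac3 (edgeR adjusted p = 0.166, SE 0.21), a channel of the outer membrane. By limma-voom, which called 4.55% of all genes higher, the adjusted p was 0.0377 for Parp1 and 0.0475 for Vdac3. By DESeq2 it was 0.0699 for Parp1 and 0.133 for Vdac3, both above the threshold.

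Among 7 inhibitors of apoptosis proteins, 3 log2 fold changes were above 0 and 4 below, with a median of -0.20 and 0 calls by edgeR. At an unadjusted p under 0.05, 2 of the 7 were lower in non-responders, Birc3 and Birc2, beside 16.1% of all genes. In the other direction there were 0, beside 7.73%. Both genes regulate NF-kappaB and death receptor signals. The log2 fold change of Birc3 was -0.98 (edgeR adjusted p = 0.119, by DESeq2 0.0274 and by limma-voom 0.0392). That of Birc2 was -0.64 (edgeR adjusted p = 0.151). DESeq2 called 10.4% of all genes lower and limma-voom 4.71%. Birc3 was at 38.5, 42.0, 35.2 and 26.1 CPM in non-responders 1 to 4 and at 30.1 (lowest), 69.9 (median) and 104 CPM (highest) in responders. Responders 2 and 3 had 40.0 and 30.1 CPM, the lowest of the 8, as for Bcl2a1b. Birc5, a gene of dividing cells, had the next lowest p of the list and a log2 fold change of 0.46.

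Upstream of Bid, 11 genes of the death receptor arm had 4 log2 fold changes above 0 and 7 below, with a median of -0.33 and 0 calls by edgeR. At an unadjusted p under 0.05, 1 of the 11 was higher in non-responders, Casp8, beside 7.73% of all genes. In the other direction there were 2, Fasl and Tnf, beside 16.1%. Casp8, the caspase that cuts BID, was at 96.8, 135, 69.1 and 57.2 CPM in non-responders 1 to 4 and at 47.2 (lowest), 54.8 (median) and 78.6 CPM (highest) in responders, which overlapped. The log2 fold change of Casp8 was 0.65 (edgeR adjusted p = 0.123, SE 0.22). DESeq2 called it (adjusted p = 0.0417), as it did 2.8% of all genes in this direction, and limma-voom did not (adjusted p = 0.107). Fasl, a death ligand of activated T cells, stood at 0.09 to 0.55 CPM in non-responders and at 0.13 to 33.1 CPM in responders, with 0.41 and 0.13 CPM in responders 2 and 3. Its log2 fold change was -4.61 (edgeR adjusted p = 0.117, SE 1.34). DESeq2 called it (adjusted p = 0.000593), as it did 10.4% of all genes in this direction, and limma-voom did not (adjusted p = 0.0886). The Fasl counts in non-responders 1 to 4 were only 8, 10, 12 and 2 reads. Tnf, an inflammatory cytokine, had a log2 fold change of -1.28 (edgeR adjusted p = 0.164, SE 0.52).

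Among 15 genes that control the turnover or transcription of MCL1 and BIM, 11 log2 fold changes were above 0 and 4 below, with a median of 0.16 and 0 calls by edgeR. At an unadjusted p under 0.05, 2 of the 15 were higher in non-responders, Akt1 among them, beside 7.73% of all genes, and 1 was lower, Pim1, beside 16.1%. Pim1, a survival kinase induced by cytokines and known to phosphorylate BAD, was at 19.8, 14.1, 10.3 and 14.7 CPM in non-responders 1 to 4 and at 14.1 (lowest), 34.1 (median) and 39.7 CPM (highest) in responders. Its log2 fold change was -1.05 (edgeR adjusted p = 0.117, SE 0.30, by DESeq2 0.0116 and by limma-voom 0.0390). Of all genes, 10.4% were called lower by DESeq2 and 4.71% by limma-voom. Akt1, another kinase that phosphorylates BAD, had a log2 fold change of 0.58 (edgeR adjusted p = 0.181, SE 0.25). The BIM activators Foxo3 and Foxo1 had log2 fold changes of 0.42 and -0.05, and the MCL1 ubiquitin ligases Huwe1 and Fbxw7 had 0.16 and 0.05.

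T cell stage markers varied along with several members. Markers of cortical thymocytes (14 of 14 higher in non-responders by fold change, none at 0) summed to 2154 to 7504 CPM in non-responders and 572 to 5449 CPM in responders. Those of mature T cells (12 of 12 lower, none at 0) summed to 175 to 306 CPM in non-responders and 258 to 1762 CPM in responders. Bid was at 35.2 CPM or less in responders 4 to 8, whose Rag1 was at 2.91 CPM or less, and at 49.5 CPM or more in all 7 tumours with Rag1 at 168 CPM or more. Bcl2a1b was at 7.62 CPM or more in those same responders 4 to 8 and at 4.90 CPM or less in the other 7 tumours. Bmf was arranged like Bid except in responder 4. Responders 5 to 8 had 36.3, 30.7, 19.3 and 21.5 CPM of Bmf, and all 7 tumours with Rag1 at 168 CPM or more had 41.0 CPM or more. Responder 4, with Rag1 at 0.46 CPM, had 47.2 CPM of Bmf. That was above responders 2 and 3, which had 41.0 and 41.1 CPM of Bmf with Rag1 at 1204 and 1262 CPM. With the cortical thymocyte score as a term of the model, 0 of the 10 members had an unadjusted p under 0.05 (6.94% of all genes did). With the score of the other cell types 1 did, Bmf (unadjusted p = 0.0110; 6.69% of all genes). Because the tumours fall into separate clusters for Rag1, no correlation with it is given.

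**Figure D5:**
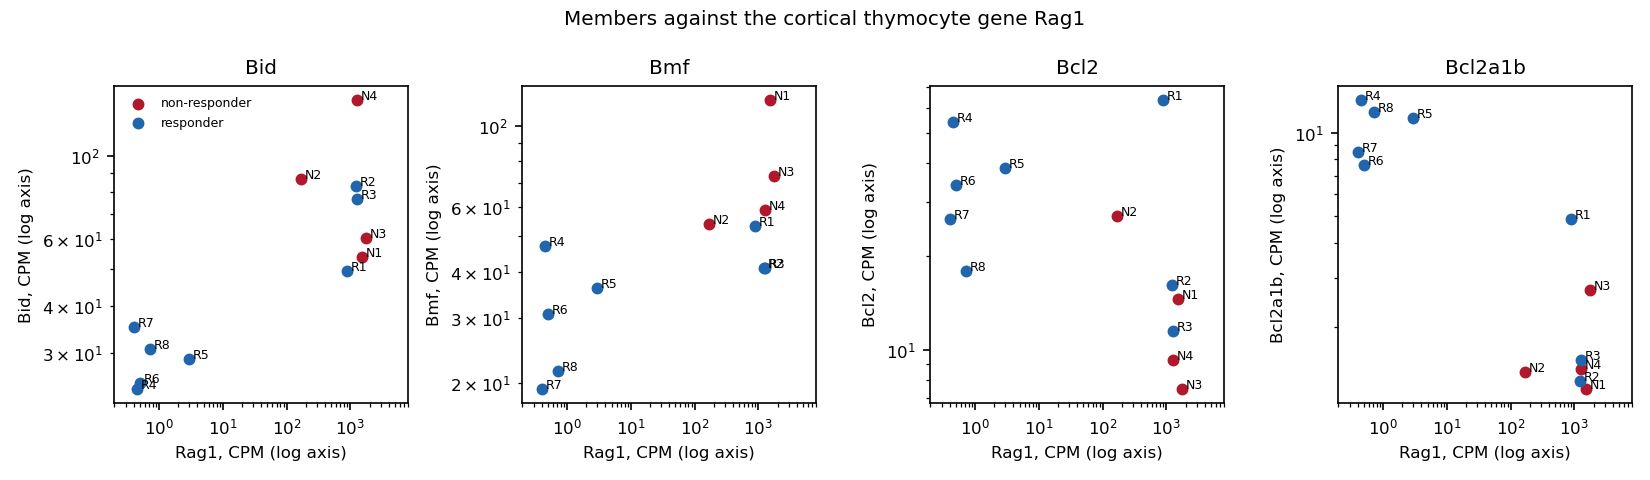
Bid, Bmf, Bcl2 and Bcl2a1b (vertical, CPM, log axis) against Rag1 (horizontal, CPM, log axis) in each tumour, with non-responders N1 to N4 in red and responders R1 to R8 in blue. Responders 4 to 8, at 0.41 to 2.91 CPM of Rag1, hold the 5 lowest values of Bid and the 5 highest of Bcl2a1b.

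The genes most alike in pattern to 5 of the members were ranked by Spearman's rho of log2 CPM over the 12 tumours, among 9538 genes with a mean of at least 10 CPM, as a description. For Bcl2 they were Jchain (0.937), Ctla2a (0.916), Itga1 (0.916), Nfkbiz (0.909) and Sox13 (0.909). For Bcl2l1 they were Mturn (0.930), Kif16b (0.923), Ypel3 (0.895), Decr2 (0.888) and Atf6 (0.874). Those of Mcl1 were Cept1 (0.930), Lum (0.874), Chd9 (0.860), Vcan (0.853) and Angpt2 (0.818), and those of Bmf were Hsd17b11 (0.958), Zfyve1 (0.951), Vps26a (0.944), Arhgap10 (0.937) and Ddit4 (0.930). Bcl2l11 had the least alike neighbours, among them Pskh1 (0.776), Tpt1-ps3 (0.776), Rps3a2 (0.755) and Ubac1 (0.734). All these values share the 12 libraries and their scaling. They are the highest out of 9538 genes, and the level that chance would give was not tested.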

How the data were processed

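RNA was taken from 12 flash-frozen thymic lymphomas, and mRNA libraries were read as pairs of 75 bases with 4 libraries in each lane, per the labels' protocols. The authors deposited raw read counts per Ensembl gene in 1 table, made with HTSeq and compared with DESeq per the submitters' processing notes, which name build NCBIM37 while the extract protocol names mm10. Neither aligner nor strand setting is stated in the sources used here. Symbols, exon lengths and coordinates come from GENCODE M21 (GRCm38), which matched 32919 of 37991 identifiers. Replicates are separate tumours, and no pair of libraries agreed within sampling noise (chi-square per degree of freedom of at least 65.2).

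Counts were filtered with filterByExpr, scaled by TMM (trimmed mean of M values) and fitted over 18612 genes with the edgeR 4.0.16 quasi-likelihood test (R 4.3.3, robust, two-sided, group as the only term). P-values were adjusted by Benjamini-Hochberg over all genes at a threshold of 0.05. CPM uses TMM-scaled totals, and log2 CPM a prior count of 2. Standard errors come from the F statistic. Alternatives were DESeq2 1.42.0, limma 3.58.1 voom with quality weights, RLE scaling, other count filters, marker scores as covariates, other balance definitions and leaving out each tumour. The depth limits genes such as Bcl2a1b and Bik, whose lowest counts were 26 and 14.

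Named are all members, the other counted family genes, up to 3 genes with the lowest p of each pathway list (beside Foxo1, Foxo3, Huwe1, Fbxw7, chosen after their values were seen), the 5 genes most alike in pattern, Rag1 and Il7r. A few genes that this rule names are not reported here. Members and lists were chosen with earlier results of these data known.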

Additional observations from a re-analysis of the deposited data

Results flagged for a closer look

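In 4 places a single tumour stood farther from the rest of its group than Dixon's test allows at 95%. The test was run on 24 groups of values, and chance flags about 1 in 20 groups. Bcl2l1 was at 91.9 CPM in responder 7, where the other 7 responders had 17.9 to 48.6 CPM. Mcl1 was at 185 CPM in non-responder 3, where the other 3 non-responders had 211 to 216 CPM. Bcl2a1b was at 2.71 CPM in non-responder 3, where the other 3 had 1.19 to 1.41 CPM. The per-length balance was -0.35 in non-responder 4, where the other 3 had 0.05 to 0.12, and Bid in that tumour was at 140 CPM.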

How the results depend on the processing

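With edgeR 0 genes passed at the adjusted threshold and 4428 had an unadjusted p under 0.05. Limma-voom called 1723 genes and DESeq2 2462, and leaving out single tumours gave 0 to 5 calls by edgeR (5 without responder 3, 3 without non-responder 1). The unadjusted count was 3224 to 5534 when single tumours were left out, 1292 with the cortical thymocyte score in the model and 1245 with the mean score of the other cell types, and the cause was not tested. The balance difference of -1.36 was -0.76 with the whole family and -1.55 to -1.16 when single tumours were left out. The per-length difference of -0.91 was -0.55 with the whole family, -0.95 with the longest transcript as length and -1.0004 to -0.80 when single tumours were left out. With the other-cell score, log2 fold changes turned to 0.20 for Bcl2, 0.018 for Bcl2l1, 0.0034 for Mcl1 and 0.59 for Bik. Bik, at -0.14, was -0.34 to 0.21 when single tumours were left out, and it was also 0.46 with the cortical thymocyte score, 0.21 without non-responder 2 and 0.10 without responder 4. The other 6 members kept their sign in all 19 alternatives, and all 10 kept it under RLE scaling and both other count filters. No paired analysis was possible because the labels give no replicate numbers or pairing shared between the groups. Depth limits Bik, with 14 to 199 counts in a tumour, and Bcl2a1b, with 26 to 401.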
